A study of Mus musculus with 2 samples.

Results

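The nuclear hormone receptors are a family of transcription factors, and their genes were described in 2 RNA fractions of the mouse cerebellum at postnatal day 7. Members were found by gene symbol in the array's probe annotation, which gave 41 genes of the 19503 with a value. Each of the 41 was measured by a single probe set, and genes of the rule without a value were not analysed here. Nr4a1 was left out by the rule, and the receptor gene Rora does not belong to it. The rule itself reads symbols and no measured value.

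Both fractions came from mice that carry Tg(Pcp2-L10a-Egfp), a transgene in which the Pcp2 promoter drives the ribosomal protein L10a joined to green fluorescent protein. Pcp2 is a gene of Purkinje cells, so the tag marks their ribosomes. In translating ribosome affinity purification (TRAP), antibodies against the tag pull tagged ribosomes and their mRNA out of an extract of pooled cerebella. The TRAP sample is the RNA on the beads and the unbound sample is the RNA that stayed behind, with 1 array for each. No array of mice without the transgene was used here, and the labels do not say how many animals were pooled.

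Nuclear receptors bind DNA through a zinc finger domain, most of them as dimers on copies of a short hexamer, and switch between corepressors and coactivators when a ligand binds. Some respond to thyroid hormone, retinoic acid, steroids, sterols or fatty acids, and others are orphans without a known physiological ligand. In the developing cerebellum thyroid hormone is known to drive Purkinje dendrite growth and granule cell maturation. RORα, a receptor outside the set described here, is required for Purkinje cells to develop.

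Promoter sequences are shown for 4 receptor genes at least 2-fold apart between the fractions, because they let a reader set genes of opposite direction side by side. RefSeq promoters of GRCm38.p6 were matched by Entrez identifier for 37 of the 41 genes, with 58 starts in all. The 250 bases before the outermost annotated start are given 5′ to 3′ on the gene's strand, with the GC box GGGCGG, or its reverse complement, in capitals. Esrrb and Ppard were higher in TRAP, and Nr4a2 and Rorb were higher in unbound. The windows are chr12:86360867-86361116 (plus strand, Esrrb), chr17:28232504-28232753 (plus, Ppard), chr2:57124004-57124253 (minus, Nr4a2) and chr19:19111197-19111446 (minus, Rorb).
Esrrb: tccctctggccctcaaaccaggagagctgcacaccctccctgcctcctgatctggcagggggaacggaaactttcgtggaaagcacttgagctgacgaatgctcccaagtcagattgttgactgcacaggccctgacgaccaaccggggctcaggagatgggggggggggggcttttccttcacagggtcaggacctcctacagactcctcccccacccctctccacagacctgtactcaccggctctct
Ppard: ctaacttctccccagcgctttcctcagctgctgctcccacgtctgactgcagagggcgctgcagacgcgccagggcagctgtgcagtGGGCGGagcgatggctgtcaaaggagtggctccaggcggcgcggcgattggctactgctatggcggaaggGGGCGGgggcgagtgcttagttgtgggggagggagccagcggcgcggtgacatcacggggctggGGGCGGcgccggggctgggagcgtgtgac
Nr4a2: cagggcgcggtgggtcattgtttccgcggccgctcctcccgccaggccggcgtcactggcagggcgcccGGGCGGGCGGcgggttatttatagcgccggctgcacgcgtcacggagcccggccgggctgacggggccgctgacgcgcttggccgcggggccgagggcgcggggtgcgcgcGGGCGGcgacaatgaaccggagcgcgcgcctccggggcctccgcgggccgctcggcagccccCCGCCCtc
Rorb: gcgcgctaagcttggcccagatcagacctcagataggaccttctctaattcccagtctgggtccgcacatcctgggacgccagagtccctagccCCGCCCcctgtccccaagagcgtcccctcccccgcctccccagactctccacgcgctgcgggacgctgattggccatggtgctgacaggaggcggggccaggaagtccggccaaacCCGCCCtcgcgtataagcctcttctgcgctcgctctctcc

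The GC box was found in genes of both directions. It occurred 3 times in the Ppard window, 2 times in that of Rorb and 4 times in that of Nr4a2, where 2 of the matches overlap, and it was not found in the Esrrb window. Over all member starts 27 of 58 (46.6%) held it, against 32.7% of the 32851 starts of all genes. It was present in 3 of 4 receptor genes at least 2-fold higher in TRAP and in 4 of the 5 at least 2-fold higher in unbound that had a promoter. The GC content of the window had a median of 59.2% over the member starts and 52.4% over all starts. These are descriptions of letters and not of sites in use.

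The hexamer AGGTCA, the element that many of these receptors themselves bind, was searched in the same windows on both strands. It occurred at 11 of the 58 member starts (19.0%) and at 14.0% of all starts. The 10 genes with a match include Thrb and Rxrg, 2 of the 5 genes at least 2-fold higher in unbound that had a promoter. These 5 have 11 starts, of which 2 held it. The 4 genes that passed 2-fold toward TRAP have 5 starts, none with a match. So few starts cannot tell the 2 directions apart. A stretch of 26 bases is given for a thyroid hormone receptor, a Rev-erb and a retinoic acid receptor gene, with the hexamer or its reverse complement in capitals. They lie at chr14:17660766-17660791 (plus, Thrb), chr14:18239168-18239193 (minus, Nr1d2) and chr15:102257732-102257757 (minus, Rarg).
Thrb: gagagttgacAGGTCAagggaatagg
Nr1d2: ttggaagaagAGGTCAggaccgctcg
Rarg: cccaggacacTGACCTctgccagctc

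Values are expression as deposited, taken as log2, and a difference is the TRAP value minus the unbound value. Each fraction was measured on 1 array, so the values have no estimate of error and no test was run. Genes are described by a size of at least 2-fold. The floor named below is 7.08, the median over both arrays together, and a value under it has no detection call to say whether the transcript was present. The TRAP array had the lower median over all probe sets (6.92 against 7.25). Subtracting these medians raised every difference by 0.33, and raised the median difference of all genes from 0.099 to 0.43.

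The labels of the fractions were set against cell type markers. As deposited, 7 of 10 measured Purkinje cell markers passed 2-fold toward TRAP and none toward unbound. The 10 differences ran from Pcp4 at 0.49 to Gng13 at 3.17. With the array medians subtracted 9 passed toward TRAP, and 6 did so after quantile normalization and after loess. Pcp2 read 12.98 in TRAP and 11.65 in unbound, above the floor in both. As deposited, 73 of 77 measured markers of other cerebellar cell types read higher in unbound, 48 of them past 2-fold. None of the 77 passed 2-fold toward TRAP as deposited. The Bergmann glia marker Hopx came nearest, at 10.36 in TRAP and 9.42 in unbound, a difference of 0.93. Hopx passed 2-fold toward TRAP with the array medians subtracted (1.27) and after quantile normalization (1.00). Granule neuron markers spanned 7.11 to 11.84 in TRAP and 9.57 to 12.91 in unbound, and those of astrocytes and Bergmann glia spanned 5.26 to 12.27 and 8.27 to 13.25. Gabra6, a GABA receptor subunit gene that defines granule cells, read 7.71 and 10.49. Markers of both kinds thus differ between the fractions beside every receptor value given below, and their part in those values was not tested. Both fractions are bulk RNA, so a value does not say which cells it came from.

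Receptor genes lay at both ends. Esrra, Esrrb, Nr2f6 and Ppard were at least 2-fold higher in TRAP, 4 of 41 (9.76%), where 4.58% of all genes were. Rorb, Nr4a2, Rxrg, Thrb, Esrrg and Nr3c1 were at least 2-fold higher in unbound, 6 of 41 (14.6%), where 11.0% of all genes were, a share near the background. The median difference of the 41 genes was 0.062, against 0.099 for all genes. With the array medians subtracted the counts were 9 and 5 (10.1% and 6.80% of all genes), after quantile normalization 7 and 6 (6.67% and 8.60%), and after removal of a loess trend 5 and 6 (5.20% and 10.1%).

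**Figure D1:**
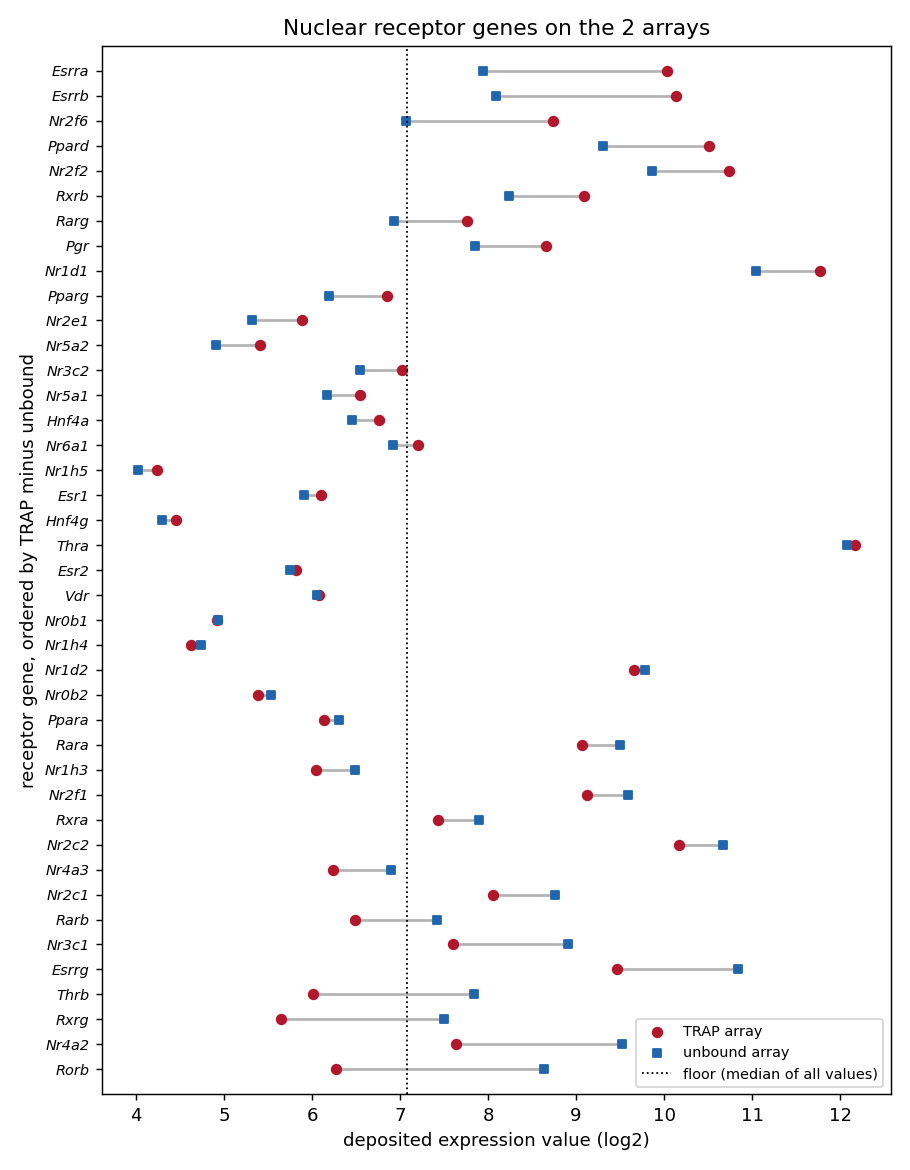
Log2 values of the 41 receptor genes on the TRAP array (circles) and the unbound array (squares), ordered by the difference, with the floor as a dotted line. Esrra at the top differs by 2.09 and Rorb at the bottom by -2.36, and 17 genes lie below the floor on both arrays.

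A total of 17 receptor genes lay above the floor on both arrays, 3 on the TRAP array only, 4 on the unbound array only and 17 on neither. The 17 genes above it on both arrays include 3 of the 4 higher in TRAP and 3 of the 6 higher in unbound (background among such genes, 7.94% and 13.0%). Nr2f6 passed through the TRAP array only, and Rorb, Rxrg and Thrb through the unbound array only, so their folds are uncertain. The 17 genes above it on neither array ranged from -0.66 to 0.66 and none reached 2-fold. Among all genes so placed, 0.457% reached it toward TRAP and 2.17% toward unbound.

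**Figure D2:**
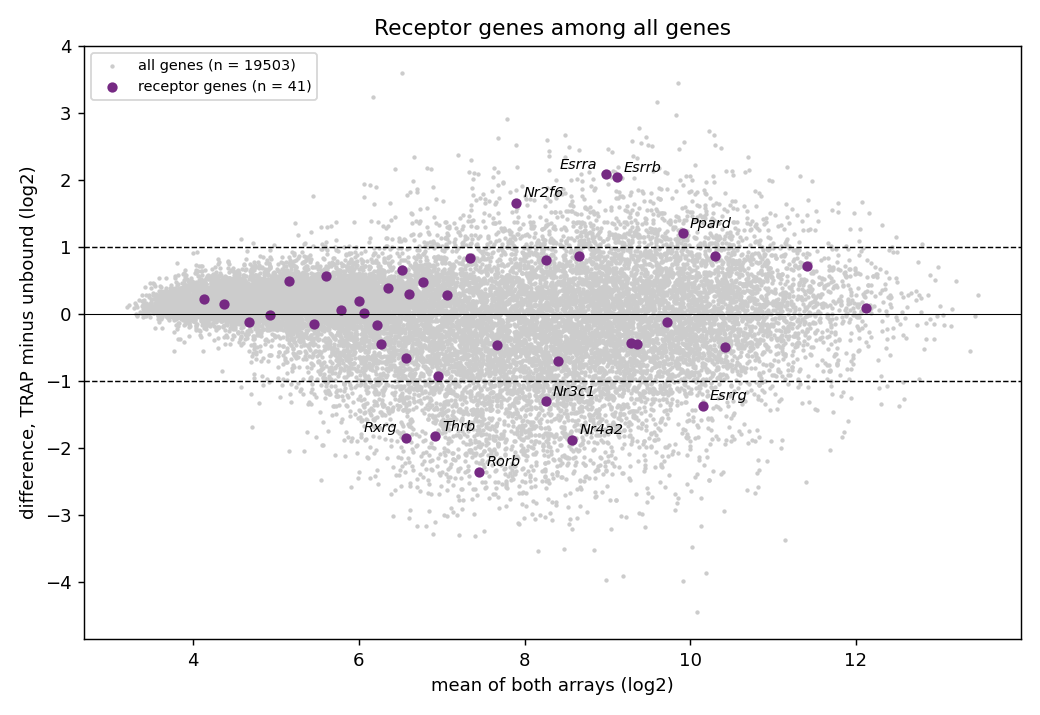
Difference between the arrays (log2, vertical) against the mean of both arrays (log2, horizontal) for all 19503 genes (grey) and the 41 receptor genes (purple), with dashed lines at 2-fold. The 10 named receptor genes lie beyond the dashed lines, 4 above and 6 below.

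The estrogen-related receptors had members past 2-fold in opposite directions. These orphan receptors bind DNA without estrogen, work with PGC-1 coactivators and are known for the control of mitochondrial and energy metabolism genes. Esrra, encoding ERRα, read 10.03 in TRAP and 7.94 in unbound and was 4.26-fold higher in TRAP. Esrrb, encoding ERRβ, a factor also known from pluripotent cells, read 10.14 and 8.09, 4.12-fold higher in TRAP. Esrrg, encoding ERRγ, read 9.46 and 10.84 and was 2.59-fold higher in unbound. All 3 genes were above the floor on both arrays, and all 3 stayed at least 2-fold apart in their direction under each of the 3 other scalings. The gap between Esrra and Esrrg, 3.46 on the log2 scale, was the same with the array medians subtracted, 3.65 after quantile normalization and 3.57 after loess. Of the 15 subfamilies with at least 2 measured members, this was the only one with genes past 2-fold in opposite directions as deposited. With the array medians subtracted and after quantile normalization Rxrb and Rxrg also lay past 2-fold on opposite sides.

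The genes of the PGC-1 coactivators did not share the size of the Esrra and Esrrb differences. Ppargc1a, encoding PGC-1α, read 10.12 in TRAP and 9.85 in unbound. Ppargc1b, encoding PGC-1β, read 8.14 and 7.84. Both differences were positive under each scaling and below 2-fold, 0.27 and 0.30 as deposited.

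Among thyroid hormone receptors, the Thra and Thrb values parted. Thra, whose transcripts encode the hormone-binding receptor TRα1 and a variant that does not bind hormone, read 12.17 in TRAP and 12.08 in unbound. Its difference of 0.09 was 0.42 with the array medians subtracted and turned slightly negative after quantile normalization (-0.02) and loess (-0.07). Thrb, encoding the TRβ receptors, read 6.01 in TRAP, below the floor, and 7.84 in unbound. It was 3.56-fold higher in unbound, and the call held under each scaling. The probe sets give 1 value per gene, so the receptor isoforms cannot be told apart.

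Retinoid receptor genes had values on either side of 0 in both of their classes. Retinoic acid receptors (RAR) pair with retinoid X receptors (RXR), which also partner thyroid hormone receptors, PPARs and others. Rxrb, encoding RXRβ, read 9.09 in TRAP and 8.23 in unbound, a difference of 0.86 that passed 2-fold with the array medians subtracted and after quantile normalization. Rxrg, encoding RXRγ, read 5.65, below the floor, and 7.50, and was 3.60-fold higher in unbound, past 2-fold under each scaling. Rxra lay between them at 7.44 and 7.89. The gap between Rxrb and Rxrg was 2.71 on the log2 scale and rests on the value of Rxrg below the floor.

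Rarg, encoding RARγ, read 7.76 in TRAP and 6.93 in unbound, the latter below the floor. Its 0.84 passed 2-fold under each of the 3 other scalings. Rarb, encoding RARβ, whose gene is itself a classical retinoic acid target, read 6.49 and 7.42, a difference of -0.93. Rara read 9.06 and 9.50. No RAR gene reached 2-fold as deposited, and Rarb and Rara were negative under every scaling.

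Lipid sensors with a value were mostly below the floor, and the oxysterol receptor gene Nr1h2 had no value. Ppard, encoding PPARδ, a broadly expressed fatty acid sensor, read 10.51 in TRAP and 9.30 in unbound, 2.31-fold higher in TRAP, and stayed past 2-fold under each scaling. The adipocyte regulator Pparg read 6.85 and 6.19, and Ppara, the hepatic regulator of fatty acid oxidation, 6.14 and 6.30. Neither was above the floor on either array, and the sign for Ppara became positive once the array medians were subtracted. The oxysterol receptor gene Nr1h3 (LXRα, -0.44), the bile acid receptor gene Nr1h4 (-0.11), Nr1h5 (0.22) and the vitamin D receptor gene Vdr (0.02) were likewise below it on both arrays. The sign of Nr1h4 became positive once the array medians were subtracted, and that of Vdr negative after loess.

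The receptors tied to the circadian clock gave 3 different values. Rev-erb proteins are repressors that compete with ROR proteins for the same DNA elements in clock genes. Nr1d1, encoding Rev-erbα, read 11.77 in TRAP and 11.05 in unbound, a difference of 0.72. This difference became 1.05, past 2-fold, with the array medians subtracted, but 0.64 after quantile normalization and 0.60 after loess. Nr1d2, encoding Rev-erbβ, read 9.66 and 9.78, and its difference of -0.12 turned positive (0.21) with the array medians subtracted. Rorb, encoding RORβ, known from retina and sensory neurons, had the lowest difference of the 41 genes. It read 6.27 in TRAP, below the floor, and 8.63 in unbound, 5.13-fold higher there, and stayed at least 4-fold higher under each scaling.

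Steroid receptor genes held 1 gene past 2-fold. Nr3c1, encoding the glucocorticoid receptor, read 7.60 in TRAP and 8.90 in unbound and was 2.46-fold higher in unbound. With the array medians subtracted its difference was -0.97, short of 2-fold, and after quantile normalization -1.01. Nr3c2, encoding the mineralocorticoid receptor, which also binds corticosterone, read 7.02 and 6.54, both below the floor. Pgr, the progesterone receptor gene, read 8.66 in TRAP and 7.85 in unbound, 1.76-fold higher in TRAP, and passed 2-fold with the array medians subtracted (1.14) and after quantile normalization (1.11). The estrogen receptor genes Esr1 (6.10 and 5.91) and Esr2 (5.81 and 5.75) were below the floor on both arrays, with the sign of Esr2 negative after loess.

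COUP transcription factors, orphan receptors that pattern the developing brain, differed among themselves. Nr2f6, encoding EAR2, read 8.73 in TRAP and 7.07 in unbound, 3.17-fold higher in TRAP, with the unbound value just under the floor. Nr2f2, encoding COUP-TFII, read 10.73 and 9.87, a 1.82-fold difference that was 2-fold only with the array medians subtracted. Nr2f1, encoding COUP-TFI, read 9.13 and 9.58 and was negative under every scaling (-0.46 as deposited). The related orphan genes Nr2c1 (TR2) and Nr2c2 (TR4) lay at -0.70 and -0.49 and were negative under every scaling too. Nr2e1, encoding the neural stem cell factor TLX, and the HNF4 genes Hnf4a and Hnf4g were below the floor on both arrays, at 0.56, 0.30 and 0.15, the last turning negative after quantile normalization and loess.

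Nr4a2, encoding NURR1, a ligand-independent receptor known from midbrain dopamine neurons and as an activity-induced gene, read 7.63 in TRAP and 9.52 in unbound. It was 3.68-fold higher in unbound and past 2-fold under each scaling. Its relative Nr4a3 read 6.23 and 6.90, both below the floor. Nr5a1 (SF-1), Nr5a2 (LRH-1) and the germ cell nuclear factor gene Nr6a1 differed by 0.38, 0.49 and 0.28, and of these Nr6a1 alone rose above the floor, in TRAP. The receptors that lack a DNA-binding domain, Nr0b1 (DAX1) and Nr0b2 (SHP), read between 4.91 and 5.53, and their differences of -0.02 and -0.15 became 0.31 and 0.18 after subtraction of the array medians.

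**Figure D3:**
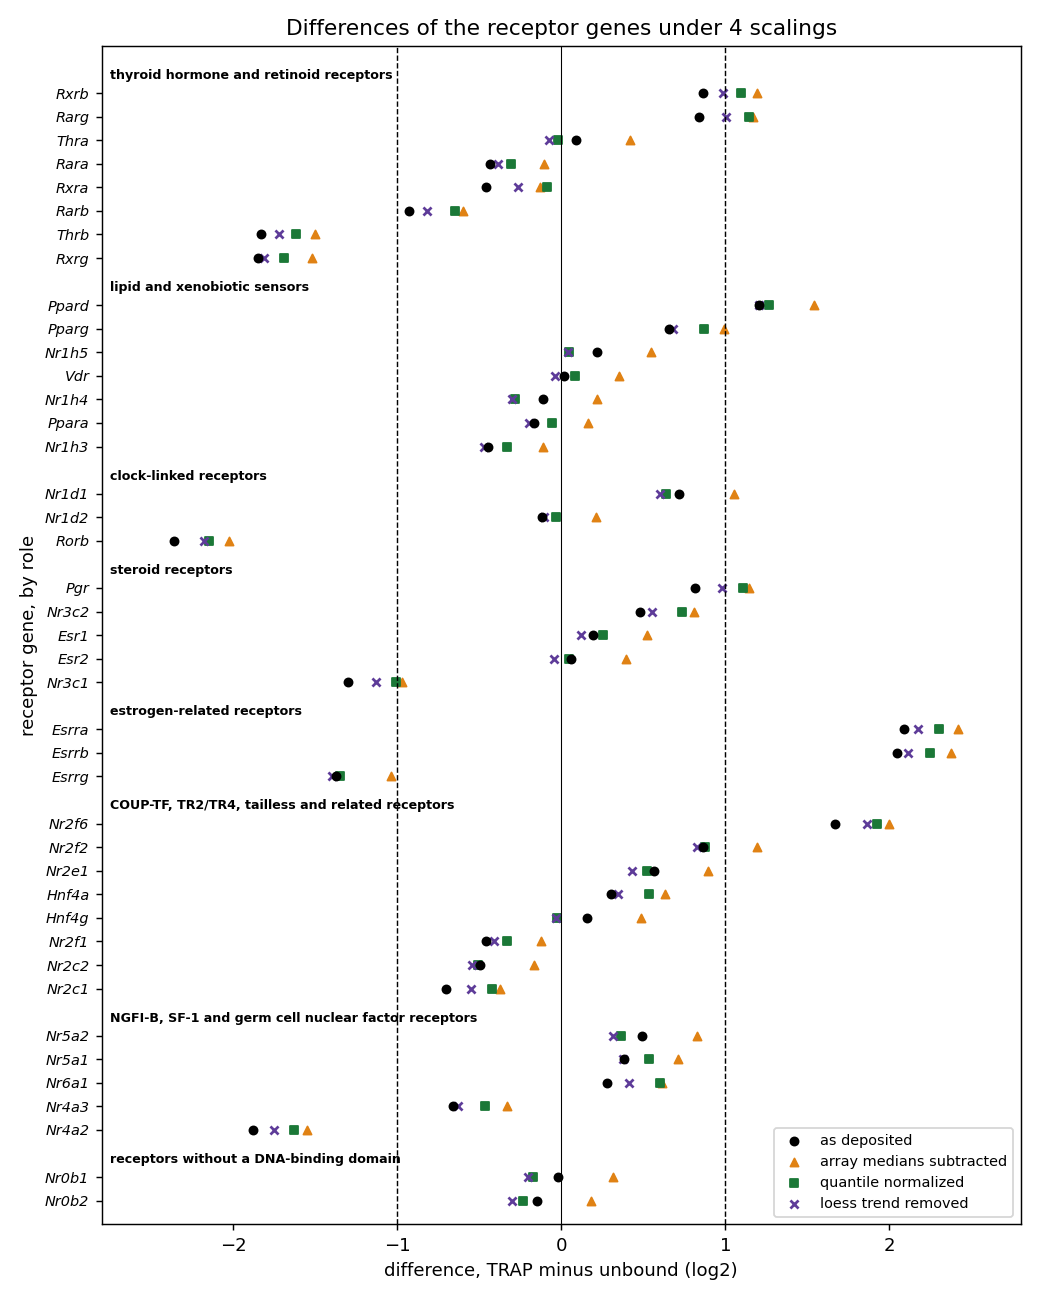
Difference of each receptor gene (log2, TRAP minus unbound) by role, under the deposited scaling (circles) and 3 others (triangles, squares and crosses), with dashed lines at 2-fold. Esrra, Esrrb, Nr2f6 and Ppard lie right of the upper line and Rorb, Nr4a2, Rxrg, Thrb and Esrrg left of the lower line under all 4 scalings, and 9 of the 41 genes change sign.

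Of the 15 subfamilies, 8 had members at least 1 apart on the log2 scale. Of these gaps only that of Esrr (3.46) rests on values above the floor alone. Those of Rxr (2.71), Nr2f (2.12) and Thr (1.92) each rest on a value below it. These are Rxrg in TRAP, Nr2f6 in unbound and Thrb in TRAP. In the Rar gap (1.77), Rarb in TRAP and Rarg in unbound lay below it. For Nr3c (1.78), Ppar (1.37) and Nr4a (1.22), the genes Nr3c2, Ppara and Nr4a3 lay below it on both arrays. On this ground the sizes and order of all these gaps but that of Esrr are uncertain. With 1 array per fraction, no gap has an estimate of error, that of Esrr included. The members of Nr5a (0.11), Esr (0.13), Nr0b (0.13) and Hnf4 (0.15) lay below the floor on both arrays. Median subtraction leaves such gaps as they are.

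Genes of the receptor pathways were read from 11 lists, of which 126 of 141 genes had a value. Each count of 2-fold differences below stands against 4.58% of all genes toward TRAP and 11.0% toward unbound (7.94% and 13.0% of genes above the floor on both arrays), and each list median against 0.099 for all genes. As deposited, 9 of 11 markers of astrocytes and Bergmann glia passed 2-fold toward unbound and none toward TRAP (median -2.14). As a list the 11 markers move the same way as the unbound counts, and their part in these was not tested. Fabp7 and Ttr stand both in a pathway list and in a marker list.

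For thyroid hormone transport, metabolism and response, 4 of 11 genes passed 2-fold toward unbound and 1 toward TRAP (median -0.38), against 11.0% and 4.58% of all genes, and both counts were the same under each other scaling. Ttr, the thyroxine carrier of choroid plexus, read 9.46 in TRAP and 12.83 in unbound. Thrsp, a thyroid hormone response gene of lipid synthesis, read 6.97 and 9.79, and Slco1c1, a thyroxine transporter, 5.63 and 7.11. Both TRAP values lay below the floor, and the unbound value of Slco1c1 was just above it. Dio2, the deiodinase that makes active hormone, read 5.30 and 6.87, both below the floor. Nrgn, encoding neurogranin, read 8.75 and 7.71 and was 2.07-fold higher in TRAP.

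Of 12 genes of retinoid transport, metabolism and response, 2 passed 2-fold toward unbound and none toward TRAP under every scaling, a share toward unbound near the background of 11.0% of all genes. The median as deposited was -0.35. The 2 genes encode retinaldehyde dehydrogenases, which make retinoic acid: Aldh1a2 read 5.89 and 8.89, and Aldh1a1 5.94 and 8.39. Both TRAP values lay below the floor. The retinoic acid-degrading Cyp26b1 lay near 0 at -0.09, a sign that turned positive under each other scaling. Dhrs3, a retinaldehyde reductase gene, read 8.85 and 8.46.

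In steroid synthesis and metabolism, 1 of 12 genes passed 2-fold toward TRAP and 1 toward unbound (median 0.03). Cyp11a1, the enzyme that turns cholesterol into pregnenolone, read 7.44 in TRAP and 6.25, below the floor, in unbound. Hsd11b2, which inactivates corticosterone, read 6.51, below the floor, and 7.93. As deposited, none of the 10 genes of steroid receptor chaperones and cochaperones reached 2-fold, and Hsp90aa1, encoding HSP90, read 12.57 and 12.55. With the array medians subtracted 2 did so toward TRAP, the cochaperone genes Bag1 (1.16, from 0.83 as deposited) and Stub1 (1.09, from 0.76).

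Glucocorticoid response genes had a median of -0.69, and as deposited 3 of 10 passed 2-fold toward unbound, where 11.0% of all genes did, and none toward TRAP. Dusp1, a MAP kinase phosphatase gene, read 8.32 in TRAP and 10.57 in unbound. Mt2, a metallothionein gene, was 3.33-fold and Zbtb16 2.14-fold higher in unbound, the latter below 2-fold under each other scaling. The TRAP value of Zbtb16, 6.85, lay below the floor. Tsc22d3, encoding the glucocorticoid-induced leucine zipper protein, went the other way with 8.35 and 7.38, 1.95-fold higher in TRAP, and passed 2-fold toward TRAP under each of the 3 other scalings (1.30, 1.28 and 1.16). With the array medians subtracted Errfi1, a feedback inhibitor gene of EGF receptor signalling, did so too (1.14).

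Response genes of the lipid sensors had medians below that of all genes. Of 12 liver X receptor response genes, 5 passed 2-fold toward unbound and none toward TRAP (median -0.94), where 11.0% and 4.58% of all genes did. Apoe, the apolipoprotein of astrocytes, read 8.48 and 11.23, Scd1 8.17 and 10.17, and Pltp 8.02 and 9.75. Lpcat3 and Scd2 were 3.35-fold and 2.50-fold higher in unbound, Scd2 falling just short of 2-fold with the array medians subtracted (-0.99). Among 14 genes of PPAR response and fatty acid oxidation, 5 did so toward unbound and none toward TRAP (median -0.65). Of the 14, 13 lay above the floor on at least 1 array, and the gene that did not is among the 5. Cpt1a, the mitochondrial gate for long-chain fatty acids, read 6.30, below the floor, and 8.21, and Acadl 7.43 and 8.92. With the array medians subtracted 2 of the 14 were past 2-fold toward unbound and 1, Fabp3 (1.03), toward TRAP.

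Of 15 circadian clock genes, 3 passed 2-fold toward TRAP as deposited, where 4.58% of all genes did (7.94% of those above the floor on both arrays), and none toward unbound. Their median of 0.18 was close to the 0.099 of all genes. With the array medians subtracted 5 passed toward TRAP, Cry2 and Dbp being added, and after loess 1 passed toward unbound, Csnk1e (-1.04). Ciart, a clock repressor gene, read 9.28 in TRAP and 7.39 in unbound, 3.70-fold higher. Hlf, a PAR bZIP factor gene, read 10.86 and 9.38, and Nfil3, a repressor of the same elements, 9.03 and 7.97. Dbp and Tef, of the PAR bZIP group as well, differed by 0.95 and 0.61, and Cry2, a core repressor gene, by 0.98. Clock read 9.60 and 10.56, and Csnk1e, a kinase gene of the PER proteins, 10.95 and 11.88. The labels do not say at what time of day the tissue was taken.

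Among 20 coactivator genes, 2 passed 2-fold toward TRAP and 2 toward unbound (median -0.10). Ncoa7 read 10.56 in TRAP and 9.38 in unbound, and Sra1 10.14 and 9.03. Ep300, a histone acetyltransferase gene, read 9.29 and 10.61, and Ncoa3, a p160 coactivator gene, 8.52 and 9.69, while the p160 genes Ncoa1 and Ncoa2 lay at 0.10 and 0.12. Neither Ep300 nor Ncoa3 reached 2-fold with the array medians subtracted. Of 12 corepressor genes, 3 passed 2-fold toward unbound and none toward TRAP (median -0.79), where 11.0% and 4.58% of all genes did. Insm1, a zinc finger repressor of neuronal progenitors, read 8.54 and 10.52, Lcor 7.17 and 8.84, and Nrip1 8.93 and 10.03. Nrip1 fell short of 2-fold with the array medians subtracted (-0.77) and after quantile normalization (-0.99), which left 2 of the 12. Hdac3, the deacetylase of the NCOR complex, read 10.72 and 10.48.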

How the data were processed

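RNA of both fractions was hybridised to Affymetrix whole-transcript mouse arrays after biotin labelling, per the labels' protocols. The authors deposited 1 log2 value per probe set and array, and the submitters' processing notes name Affymetrix Power Tools. Not given in the sources used here are its version, the normalization, the summary method and the log base. The values were taken as log2, since as natural logs the highest would exceed the 65535 of a 16-bit scanner. Of 22097 probe sets, 20999 name 1 gene in the platform annotation and were averaged to 19503 genes, while 91 with several names and 1007 with none were not used. All 41 receptor symbols matched RefSeq by Entrez identifier. No further scaling was applied. The number of arrays, 1 per fraction, limits the precision, so no test was made. The rule picks members by symbol, but the set itself, the gene lists and the settings were chosen with earlier results of these data known. Every receptor gene is named. From other lists, genes at least 2-fold apart with a value above the floor and up to 2 further genes from each end may be named. Genes named beyond this rule (Ppargc1a, Ppargc1b, Ncoa1, Ncoa2, Cyp26b1, Hsp90aa1, Dio2, Tef) were chosen for their role in the pathway after their values were seen. Other scalings were subtraction of array medians, quantile normalization and removal of a loess trend (span 0.3, statsmodels 0.14.6). The counting was tested on simulated data.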

Additional observations from a re-analysis of the deposited data

How the results depend on the processing

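With no replicate, settings can be compared only by counts and sizes. Receptor genes at least 2-fold higher in TRAP, 4 as deposited, numbered 9 with the array medians subtracted, 7 after quantile normalization, 10 at a threshold of 1.5-fold, 2 at 4-fold, and 2 among the 10 genes whose mean lay above the 75th percentile. Those higher in unbound, 6 as deposited, numbered 1 at 4-fold and 1 above that percentile, and from 4 to 9 under the other settings. The median difference, 0.062 as deposited, was 0.39 with the array medians subtracted, -0.021 after quantile normalization, -0.047 after loess, -0.28 over the 24 genes above the floor on at least 1 array, and -0.016 over the 20 genes with a mean above the floor and over the 10 above the 75th percentile. The choice of probe set changed no receptor value, since each gene has 1. No gene at least 2-fold apart changed sign under another scaling. A change of sign or of side of the 2-fold limit occurred for 11 of the 41 genes with the array medians subtracted and for 5 each after quantile normalization and loess. No paired analysis was possible because each fraction has 1 array, which makes a single pair with no spread to test against.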

Other observations

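Receptor genes of the thyroid hormone, Rev-erb and retinoic acid classes neighbour each other at 2 places in the RefSeq annotation. On chromosome 11, Thra and Nr1d1 overlap and Rara follows with 5 protein-coding genes between Nr1d1 and it. On chromosome 14, Rarb and Thrb have no protein-coding gene between them, and 1 lies between Thrb and Nr1d2. The chromosome 11 genes differed by 0.09 (Thra), 0.72 (Nr1d1) and -0.44 (Rara) on the log2 scale. Each paralogue on chromosome 14 was lower than its counterpart, with -1.83 (Thrb), -0.12 (Nr1d2) and -0.93 (Rarb), and this order held under each of the 3 other scalings. Thrb (6.01) and Rarb (6.49) lay below the floor in TRAP, so the sizes of their differences are uncertain. Rarg, the third RAR gene, lies on chromosome 15 and differed by 0.84. Because Thra and Nr1d1 overlap, the part of each probe set that reads the shared stretch is not known here.

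Rora, encoding RORα, a receptor gene outside the set, read 12.16 in TRAP and 11.39 in unbound, a difference of 0.77. The Rora difference passed 2-fold only with the array medians subtracted (1.10), and was 0.69 after quantile normalization and 0.63 after loess. Its relative Rorb was 5.13-fold higher in unbound.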
